A study of Rattus norvegicus with 36 samples.

Results

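Total RNA of rat skeletal muscle collected 1 h after a bout of resisted contractions was set against muscle whose labels name no contractions. The exercised group held 4 of the 36 arrays of the series, titled as exercise at 1 h, and the control held 4, titled as muscle, 1hr and polysome. Each group had numbers 1 and 2 with 2 arrays each, named 1aA, 1bA, 2aA and 2bA, and values below follow that order. The labels give the muscle as "ta" in both groups and no strain, sex, age, load or type of stimulation. They do not say whether a number is an animal, so the p-values cover only how these samples vary, and that spread may be technical.

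The series also holds total RNA at 6 h and RNA on polyribosomes at 1 h and 6 h after the contractions, and a second control that is polysomal in title and description. The description of the control used here gives muscle at 1 h and names no polyribosomes, whereas its title does. RNA fraction may therefore differ along with contraction, and the effects of fraction and contraction cannot be told apart.

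Each array measured 8799 probe sets, of which 8740 remained without the 59 control probe sets and 6707 were tested. Values are signals on a linear scale, as deposited, and log2 changes are exercised minus control. A signal under 129.5, the 40th percentile of all values, was set to that floor. The median signal of the 8 arrays ran between 176 and 247.5, and the 2% trimmed means of all 36 arrays between 801.03 and 801.9. The number of arrays limits the precision.

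Contracting muscle is known to answer within the first hour by transcribing immediate early genes, whose products are themselves transcription factors or brakes on kinase signalling. Heat shock proteins, stretch-responsive proteins of the sarcomere and regulators of myogenesis are known to follow load, damage and loss of nerve activity. Total RNA holds all transcripts of the tissue, including those in the nucleus and those without ribosomes. Polysomal RNA holds transcripts loaded with several ribosomes.

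The 4 control arrays did not resemble each other in the probe sets that differed between RNA fractions at 6 h. At 6 h, on other arrays, 588 of the 6707 probe sets (8.77%) differed between polysomal and total RNA, 253 higher and 335 lower in polysomal RNA. Total RNA number 3 was among those 6 h arrays. Its arrays 3aA and 3bA had a median r of 0.832 and 0.835 with the other numbers of that group. The other arrays of the group had 0.902 to 0.915. The median of the 253 minus the median of the 335, relative to the mean of all 36 arrays, was -1.16, -0.83, -0.93 and -0.90 (log2) on the 4 exercised total RNA arrays, against 0.48, 0.29, 0.66 and -1.07 on the 4 control arrays. Control array 2bA thus lay within the range of the exercised total RNA arrays, and the other 3 control arrays lay above 0. The 4 polysomal arrays at 1 h stood between 0.12 and 0.48, and the 8 arrays of the polysomal control between 0.54 and 1.16. Array 2bA correlated more closely with the exercised total RNA arrays, with a median r over probe sets of 0.948, than control arrays 1aA, 1bA and 2aA did, with 0.921, 0.919 and 0.907. With the polysomal control the order was turned round, with 0.909 for 2bA, against 0.959, 0.956 and 0.961. The ratio of 3′ to 5′ probe sets of actin, a measure of RNA integrity and labelling, was 1.62, 1.22, 1.25 and 1.32 on the exercised arrays, against 1.99, 2.73, 2.57 and 1.07 on the control arrays. The same ratio of GAPDH did not set 2bA apart in this way. It was 0.53, 0.91, 0.89 and 0.78 on the exercised arrays, against 0.64, 1.02, 1.01 and 0.51 on the control arrays, with 1aA next to 2bA. On total RNA arrays 3aA and 3bA at 6 h, which helped to choose the probe sets, the actin ratio was 9.01 and 11.5. Their GAPDH ratio was 11.4 and 9.73. The other total RNA arrays at 6 h had 1.01 to 1.58 for actin and 0.54 to 1.09 for GAPDH. The labels do not settle which fraction any control array holds. Results are therefore given with all 4 control arrays and, where it alters them, without array 2bA.

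**Figure D1:**
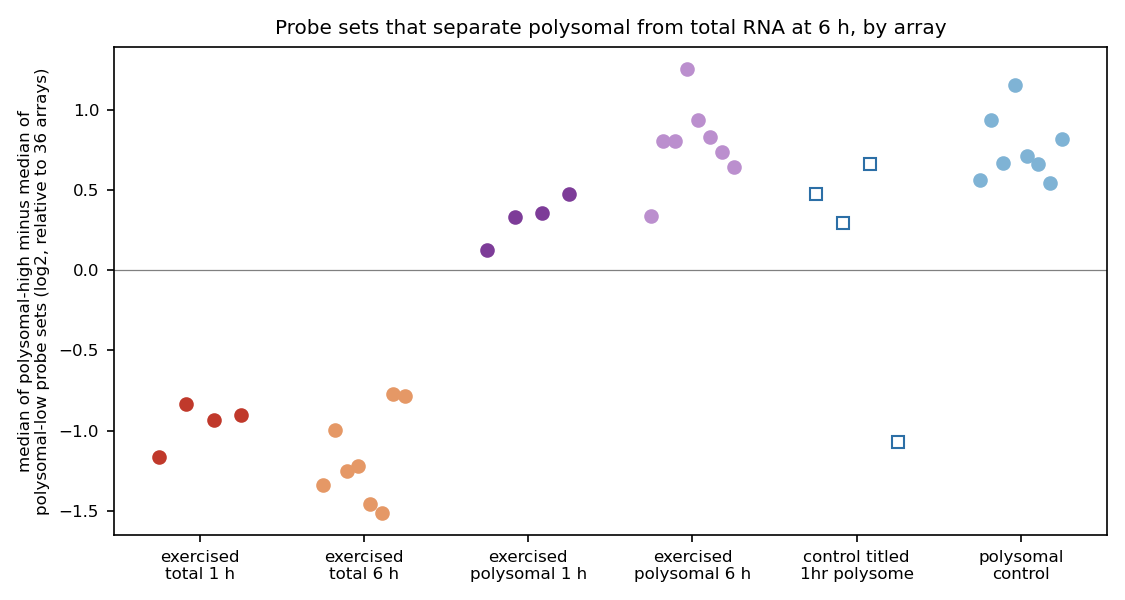
Difference between the median of the 253 probe sets higher and the median of the 335 lower in polysomal than in total RNA at 6 h, on each of the 36 arrays (log2, relative to the mean of all arrays), by group; the 6 h arrays chose the probe sets. The 4 exercised total RNA arrays at 1 h lie between -1.16 and -0.83, and of the 4 control arrays titled 1hr polysome (open squares) 3 lie above 0 and 2bA lies at -1.07.

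Of the 6707 probe sets 5 were called at an adjusted p under 0.05 (0.0745%), all higher in exercised muscle, and 0 were lower (limma; 745 probe sets, 11.1%, had an unadjusted p under 0.05). By the brightest probe set of each gene, 2 of 3903 genes were called (0.0512%), Chrna1 and F3. The other 3 calls were dimmer probe sets of Myh3 and Junb and a probe set without a symbol. The median change was 0.03 over all probe sets and 0.01 over all genes, and 50.7% of the genes stood above 0. At an unadjusted p under 0.05, 204 genes (5.23%) were higher and 230 (5.89%) lower. Without control array 2bA, 202 probe sets were called (3.01%), 95 higher (1.42%) and 107 lower (1.6%), the 5 among them. By brightest probe sets 40 genes were then called higher (1.02%) and 70 lower (1.79%). Leaving out a whole number instead gave 19 calls without exercised number 1 (3 of the 5 among them), 1 without exercised number 2, and 0 without control number 1 or without control number 2 (299 and 718 probe sets at an unadjusted p under 0.05).

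Chrna1, which encodes the alpha subunit of the muscle acetylcholine receptor, gave the highest change among the called genes. The signal of Chrna1 was 2981, 2604, 17801 and 16455 on the exercised arrays, against 654, 426, 404 and 634 on the control arrays. The groups did not overlap, and both arrays of exercised number 2 stood several times above those of number 1. The change was 3.74 on the log2 scale (SE 0.63, 13.4-fold, adjusted p = 0.0468), with log2 means of 12.75 ± 1.85 in exercised and 9.01 ± 0.04 in control muscle (SD, n = 2 numbers each). It stood at 3.90 without control array 2bA, with an adjusted p of 0.0116 (6.1e-06 to 0.335 over the 18 alternatives).

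The Myh3 probe set that passed reads the embryonic myosin heavy chain, the sarcomeric motor of developing and regenerating fibres. It read 1698, 1395, 3959 and 4196 on the exercised arrays, against 224, 162, 219.7 and 651 on the control arrays. All exercised arrays were above all control arrays, and 2bA was the highest of the control. Its change was 3.22 (SE 0.47, adjusted p = 0.0164). All 5 Myh3 probe sets stood above 0, but the brightest, with geometric means of 9539 in exercised and 3433 in control muscle, did not pass (log2 1.47, SE 0.44, adjusted p = 0.243) and passed without array 2bA (1.70, adjusted p = 0.0481). Myosin heavy chains are near-identical over long stretches, so these probe sets may read other members of the family too.

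Junb, which forms part of the AP-1 transcription factor, passed by its dimmer probe set. It read 1765, 1642, 1270.4 and 1442 on the exercised arrays, against 462, 181, 313 and 56.2 on the control arrays. Exercised arrays lay close together and above the control, whose array 2bA was under the floor. The change was 2.65 (SE 0.40, adjusted p = 0.0164). The brighter probe set of Junb stood at 2.52 (SE 0.68, adjusted p = 0.195), with 2022, 1967, 1887 and 1573 on the exercised arrays, against 556, 387, 322 and 159 on the control arrays.

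F3 encodes tissue factor, the membrane protein that starts blood clotting. The signal of F3 was 340.3, 215, 245 and 238 on the exercised arrays, against 70.7, 73.6, 48.0 and 118 on the control arrays. All 4 control arrays lay under the floor and all 4 exercised arrays above it, so the gene was at least 1.97-fold higher in exercised muscle (adjusted p = 0.0476). The probe set without a symbol read 308, 266, 366.5 and 354 on the exercised arrays, against 120.1, 110.0, 84.9 and 112 on the control arrays. Its control arrays were also all under the floor, and it was at least 2.48-fold higher (log2 1.31, SE 0.17, adjusted p = 0.00683).

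**Figure D2:**
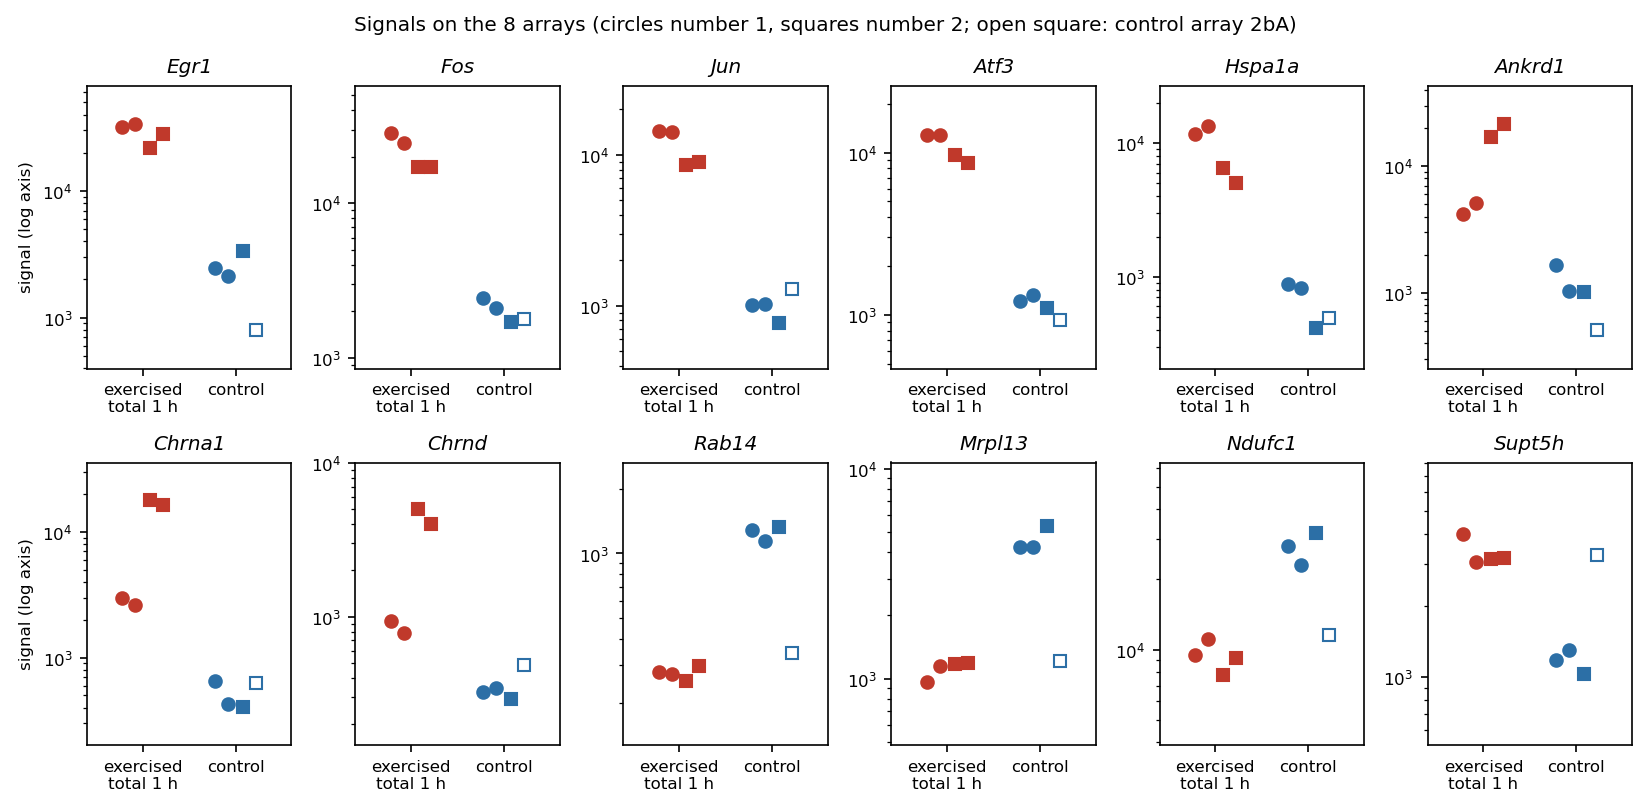
Signal of 12 genes on each array (log axis), with the 4 exercised total RNA arrays left of the 4 control arrays; circles are number 1, squares number 2, and the open square is control array 2bA. In Egr1, Fos, Jun, Atf3, Hspa1a and Chrna1 array 2bA lies far below the exercised arrays, whereas in Rab14, Mrpl13, Ndufc1 and Supt5h it lies nearer the exercised arrays.

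The acetylcholine receptor subunits Chrnd and Chrnb1 and the myogenic factors Myog and Myf6 had all exercised arrays above all control arrays without passing, while the groups overlapped for Chrne, Chrng and Myod1. For the delta subunit, Chrnd, the signal was 934, 785, 5016 and 3982 on the exercised arrays, against 325, 344, 293 and 488 on the control arrays. The groups were apart, again with number 2 the higher of the exercised numbers (log2 2.46, SE 0.57, adjusted p = 0.137). Leaving out control array 2bA gave a change of 2.64 (adjusted p = 0.0319), and over the 18 alternatives the adjusted p ran between 0.00142 and 0.833. The beta subunit Chrnb1 stood at 1.45 (SE 0.43, adjusted p = 0.243), the epsilon subunit Chrne at 0.66 (SE 0.58) and the gamma subunit Chrng at 0.44 (SE 0.32). The beta subunit passed as higher without array 2bA (1.71, adjusted p = 0.041). Myog, the myogenic transcription factor myogenin, had geometric means of 1871 in exercised and 297 in control muscle (log2 2.65, SE 1.09, adjusted p = 0.363). For Myf6, the myogenic factor of adult fibres, the signal was 6625, 8105, 9922 and 9891 on the exercised arrays, against 2245, 1812, 2128 and 3518 on the control arrays. Its change of 1.86 (SE 0.46, adjusted p = 0.166) did not pass with 2bA and passed without it. Myod1, another factor of that family, stood at 0.43 (SE 0.41), with geometric means of 1128 in exercised and 838 in control muscle.

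The 100 bases before the RefSeq start of Chrna1, Chrnd, Myh3 and Myog are shown because these genes gave some of the largest values and because E boxes (CANNTG, its own reverse complement), the sites that myogenic factors bind, are known in the receptor promoters. Capitals mark each E box that a search of the window found, on the RefSeq GRCr8 assembly and in the gene's own direction.
Chrna1, chr3:78877354-78877453, minus strand: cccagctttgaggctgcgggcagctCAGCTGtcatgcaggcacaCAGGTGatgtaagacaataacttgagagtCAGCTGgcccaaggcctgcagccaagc
Chrnd, chr9:95310216-95310315, plus strand: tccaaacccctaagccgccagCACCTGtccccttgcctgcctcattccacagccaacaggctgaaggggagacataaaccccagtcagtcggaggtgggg
Myh3, chr10:52269085-52269184, plus strand: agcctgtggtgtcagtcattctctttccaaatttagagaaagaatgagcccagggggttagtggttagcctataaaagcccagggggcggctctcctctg
Myog, chr13:48297376-48297475, plus strand: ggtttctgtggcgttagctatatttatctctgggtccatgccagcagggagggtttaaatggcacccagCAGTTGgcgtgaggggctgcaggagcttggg
The windows held 3 E boxes for Chrna1, 1 each for Chrnd and Myog, and 0 for Myh3. Of 33469 rat promoter windows of this length 33.8% held at least 1 and 1.15% at least 3. A match in these letters is no evidence of binding, and its absence says nothing of the factor.

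In the list of 33 measured stretch-responsive, myogenic and growth regulators, 1 rose (Chrna1) and 0 fell, and without array 2bA 7 passed as higher (Chrna1, Chrnd, Myf6, Mef2d, Chrnb1, Igf2 and Myh3) and 1 as lower (Igfbp3). Among all genes 1.02% passed as higher and 1.79% as lower without that array. Of the list, 24 stood above 0 and 9 below, with a median of 0.52, and 9 had all 4 exercised arrays above all 4 control arrays, against 4.33% of all genes. Their median on the single arrays, relative to the exercised mean, lay between -0.18 and 0.26 on the exercised arrays, against -0.56, -0.63 and -0.66 on control arrays 1aA, 1bA and 2aA and -0.43 on control array 2bA. Ankrd1, an ankyrin repeat protein of the sarcomere that responds to stretch, had 4153, 5158, 16925 and 21397 on the exercised arrays, against 1662, 1039, 1023 and 507 on the control arrays. The groups did not overlap, but number 2 of the exercised group lay well above number 1, and the change of 3.27 had an SE of 1.19 (adjusted p = 0.317). For Csrp3, the muscle LIM protein of the Z disc, the signal was 4076, 6357, 11989 and 12949.7 on the exercised arrays, against 3685, 3664, 4306 and 3811 on the control arrays. Array 1aA lay inside the control range and the other 3 exercised arrays above it (log2 1.05, SE 0.72, adjusted p = 0.643). Flnc, the Z disc protein filamin C, stood at 1.47 (SE 0.58, adjusted p = 0.355), and a dimmer Flnc probe set passed without 2bA (2.41, adjusted p = 0.0319).

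Among growth factors and their regulators, Igfbp3, a binding protein of the insulin-like growth factors, gave the lowest value. The signal of Igfbp3 was 187, 294, 129.8 and 225 on the exercised arrays, against 865, 866, 1064 and 446 on the control arrays. All exercised arrays were below all control arrays, with 2bA the lowest of the control (log2 -1.95, SE 0.40, adjusted p = 0.0879). It stood at -2.26 without control array 2bA, with an adjusted p of 0.0135 (0.00288 to 0.748 over the 18 alternatives). The other probe set of Igfbp3 stood at 0.14 (adjusted p = 0.97). Igf2, an insulin-like growth factor, had geometric means of 2820.1 in exercised and 1511 in control muscle (log2 0.90, SE 0.28, adjusted p = 0.243) and passed as higher without 2bA (1.17, adjusted p = 0.0429). Mstn, the growth inhibitor myostatin, had 521 in exercised and 196 in control muscle (log2 1.41, SE 0.45, adjusted p = 0.26). Igf1 stood at -0.32 (SE 0.32).

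The immediate early and stress transcription factors gave the largest values among the lists, and none of the 39 measured genes was called by its brightest probe set. Of them 31 stood above 0, 7 below and 1, Fosl1, at the floor on all 8 arrays, with a median of 0.63 beside 0.01 for all genes. In 14 genes all exercised arrays lay above all control arrays, against 4.33% of all genes, and in 0 below. The median of the list was between -0.11 and 0.13 on the exercised arrays, against -0.60, -0.66 and -0.73 on control arrays 1aA, 1bA and 2aA and -0.56 on control array 2bA. So by the median of this list array 2bA lay with the other control arrays.

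Egr1, a zinc finger transcription factor, had 31747, 33644, 21919.8 and 28101 on the exercised arrays, against 2472, 2115, 3365 and 792 on the control arrays. The lowest exercised array lay far above the highest control array, and all 4 Egr1 probe sets had this direction. With a change of 3.88 (SE 0.92, 14.7-fold) its adjusted p was 0.144, and it did not pass. The signal of Fos was 28698, 24514, 17203 and 17251 on the exercised arrays, against 2430.2, 2092, 1708 and 1788 on the control arrays. Fos, the partner of the Jun proteins in AP-1, stood at 3.43 (SE 0.82, adjusted p = 0.147), with the other probe sets at 4.47 (adjusted p = 0.0879) and 4.87 (adjusted p = 0.193). Its change without control array 2bA was 3.45 (adjusted p = 0.0429), and its adjusted p ran between 0.00133 and 0.748 over the 18 alternatives. The signal of Jun was 14296, 14212, 8613 and 8973 on the exercised arrays, against 1008, 1026, 769 and 1299.5 on the control arrays. For this AP-1 subunit the groups were likewise apart (log2 3.47, SE 0.86, adjusted p = 0.166, 4 of 4 probe sets). Leaving out control array 2bA gave a change of 3.66 (adjusted p = 0.0423), and over the 18 alternatives the adjusted p ran between 0.00177 and 0.865. The signal of Atf3 was 12853, 12847, 9675 and 8642 on the exercised arrays, against 1214, 1318, 1104 and 934 on the control arrays. Atf3, a stress-induced transcriptional repressor, stood at 3.26 (SE 0.91, adjusted p = 0.215).

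The spread behind these tests came from all 6 groups. In Egr1, Fos, Jun and Atf3 the SD between the 2 numbers was 0.28, 0.44, 0.49 and 0.35 (log2) in exercised muscle and 0.34, 0.26, 0.02 and 0.22 in the control. When the 4 replicates were fitted alone, 0 of 6707 probe sets passed and 1369 had an unadjusted p under 0.05.

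Dusp1, a phosphatase of MAP kinases, was read by 3 probe sets that gave unequal changes. The brightest gave 2317, 2454, 1235 and 1199.7 on the exercised arrays, against 384, 419, 481 and 600.5 on the control arrays. The groups did not overlap (log2 1.88, SE 0.77, adjusted p = 0.365). The other probe sets stood at 3.59 (adjusted p = 0.264) and 3.37 (adjusted p = 0.266), also with no overlap. The first of these read 146, 118, 85.4 and 1703 on the control arrays, and the second 41, 27, 14.2 and 433.5. In both, array 2bA was thus far above the other control arrays. The probe set at 3.59 passed without array 2bA (4.52, adjusted p = 0.0447). Zfp36, which speeds the decay of cytokine mRNAs, stood at 1.69 (SE 0.43, adjusted p = 0.18) and passed without array 2bA. Klf4 stood at 1.38 (SE 0.50) and Sgk1, a kinase induced by glucocorticoids, at 1.41 (SE 0.59, adjusted p = 0.375). Gadd45a, a stress protein that also marks denervated muscle, read 1849, 1401, 9931 and 9343 on the exercised arrays, against 1029, 1087, 1048 and 917 on the control arrays. Only number 2 was far above the control.

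Of the nuclear receptors of this list, Nr4a1 was bright in both groups, with 16223, 17121, 15138 and 12657 on the exercised arrays, against 15905, 15793, 12127 and 7680.4 on the control arrays. Its change was 0.30 (SE 0.69, adjusted p = 0.957), and the groups overlapped. The dimmer Nr4a1 probe set differed from this, with 8345, 9878, 6991 and 7572 on the exercised arrays, against 4074, 2171, 1916 and 2292 on the control arrays and no overlap (log2 1.70, adjusted p = 0.318). For Nr4a3 the change was 1.05 (SE 0.64, adjusted p = 0.593), with 919, 999.6, 749 and 531 on the exercised arrays, against 452, 452, 443 and 222 on the control arrays. The groups did not overlap. A dimmer Nr4a3 probe set stood at 2.98 (7.91-fold, adjusted p = 0.111), likewise with no overlap, and passed without array 2bA (2.76, adjusted p = 0.041), and the third lay at or near the floor. Klf6 stood at 0.29 (SE 0.69) and at -0.29 without array 2bA. Myc, a growth-promoting factor, stood at 0.64 (SE 0.46, adjusted p = 0.664). At the low end, Klf9, a factor induced by glucocorticoids, had geometric means of 5318 in exercised and 12421 in control muscle (log2 -1.22, SE 0.40, adjusted p = 0.264), and the synaptic scaffold gene Homer1 927 in exercised and 1597 in control muscle (log2 -0.79, SE 0.28, adjusted p = 0.314). Both passed as lower without array 2bA.

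Heat shock proteins were led by Hspa1a, the inducible chaperone whose near-identical copy Hspa1b the probes may not separate. Hspa1a read 11729, 13443, 6519 and 5007 on the exercised arrays, against 887, 816, 410.4 and 489 on the control arrays. The groups were far apart on every array (log2 3.78, SE 0.72, 13.7-fold, adjusted p = 0.0811). Leaving out control array 2bA gave a change of 3.84 (adjusted p = 0.0177), and over the 18 alternatives the adjusted p ran between 0.00204 and 0.335. Dnajb1, a cochaperone that hands substrates to it, had geometric means of 2935 in exercised and 593 in control muscle (log2 2.31, SE 1.22, adjusted p = 0.513), and its groups did not overlap. Of the 19 measured members 0 were called, and 13 stood above 0 and 6 below (median 0.34). In 3 all exercised arrays lay above the control, against 4.33% of all genes. Hspb1, a small heat shock protein, stood at 0.43 by its brightest probe set (SE 0.83, adjusted p = 0.939). A dimmer probe set of Hspb1 stood at 2.24 and passed without 2bA (2.44, adjusted p = 0.0292). Hspd1, the mitochondrial chaperonin, stood at 0.15 (SE 0.41) and Hsp90ab1 at -0.12 (SE 0.42). Other members lay further from 0, such as St13 at 1.07 (SE 0.79), Hspe1 at -0.78 (SE 0.43) and Hspb6 at -0.81 (SE 0.54). The 12 measured chaperones and stress genes of the endoplasmic reticulum had 0 calls, 9 above 0 and 3 below, and a median of 0.34. In 1 gene, Ddit3, all exercised arrays lay above the control, against 4.33% of all genes.

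**Figure D3:**
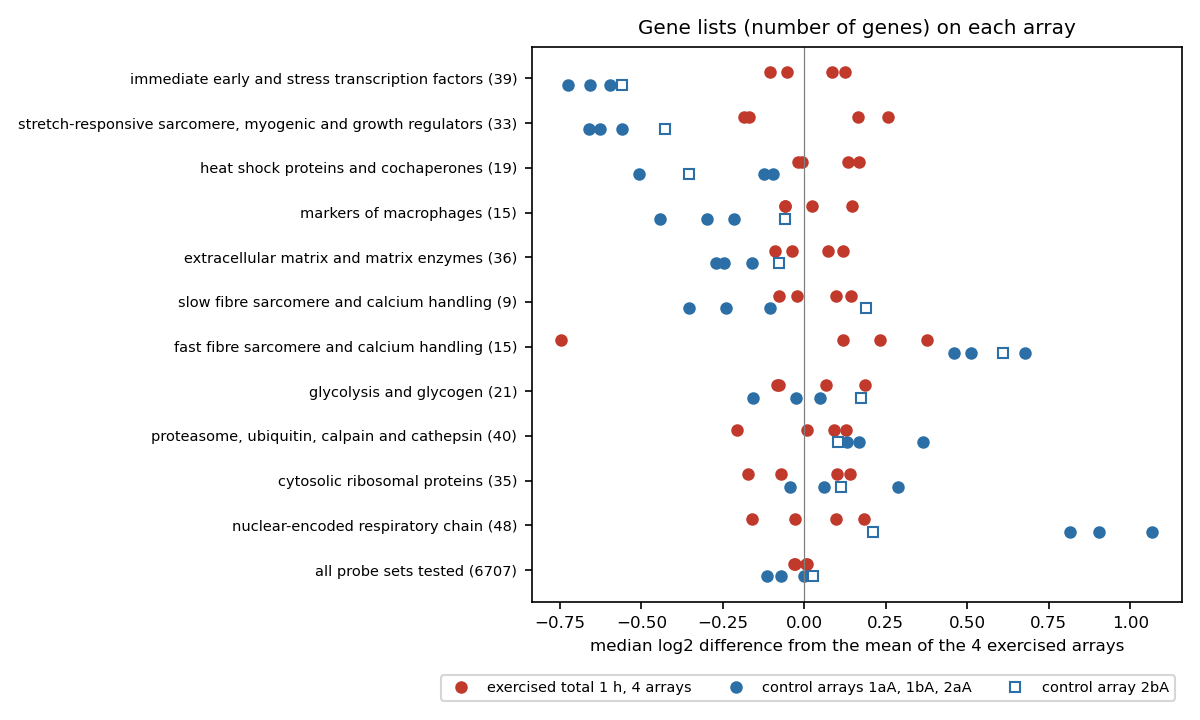
Median over the genes of 11 lists and over all 6707 probe sets on each array, as a log2 difference from the mean of the 4 exercised arrays; exercised arrays are drawn above the control arrays of the same list, and the open square is control array 2bA. In the respiratory chain control arrays 1aA, 1bA and 2aA lie at 0.82, 0.90 and 1.07 and 2bA at 0.21, while in the immediate early list all 4 control arrays lie between -0.73 and -0.56.

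Ligands and brakes of the EGF receptor were measured for 8 genes, 4 above 0 and 4 below (median 0.20), of which 0 were called. Hbegf, a membrane-bound ligand, read 590.3, 292, 599 and 528 on the exercised arrays, against 67.0, 60.2, 106 and 211 on the control arrays. All exercised arrays were above the control, where 3 arrays lay under the floor and 2bA above it (log2 1.72, SE 0.66, adjusted p = 0.334), and its other probe set lay under the floor on all 8 arrays. For Errfi1, a feedback inhibitor of that receptor, the signal was 1065, 2048, 1452 and 1660.1 on the exercised arrays, against 494, 506, 439.8 and 508 on the control arrays. Its groups did not overlap (log2 1.64, SE 0.45, adjusted p = 0.21). Of its dimmer probe sets 1 stood at 2.80 and passed without 2bA (2.92, adjusted p = 0.0429), and the other stood at 0.07.

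Inflammation genes were split: of 26 measured members 13 stood above 0, 11 below and 2 at the floor on all arrays (median 0.11), and 0 were called. Ccl2, which attracts monocytes, was the only 1 of the 26 with all exercised arrays above the control, against 4.33% of all genes. Its geometric means were 456 in exercised and 171 in control muscle (log2 1.42, SE 1.18). Icam1, an adhesion molecule for leukocytes, stood at 1.19 (SE 0.55, adjusted p = 0.447). Nfkbia, the inhibitor of NF-kappaB, gave 1218, 1543, 779 and 864 on the exercised arrays, against 3604, 3062, 2751 and 1014 on the control arrays. The groups overlapped through 2bA alone (log2 -1.15, SE 0.37, adjusted p = 0.264), and the gene passed as lower without it.

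Of 15 measured macrophage markers 0 were called, 11 stood above 0, 3 below and 1 at 0 (median 0.32, and -0.03 against the polysomal control). Their summed signal ran between 11835 and 13448 on the exercised arrays, against 8027 to 10698 on the control arrays. The highest were antigen-presenting molecules, RT1-Bb at 1.43 (SE 0.38, adjusted p = 0.193) and RT1-Ba at 1.00 (SE 0.40), which other cells can express and whose family members are alike in sequence. Itgam lay at the floor on all 8 arrays. In bulk RNA fewer cells of a type and less RNA per cell cannot be told apart. Neutrophil markers (6 measured) summed to 1247 to 1899 on the exercised arrays, against 1088 to 2099 on the control arrays, and red cell markers (4 measured) to 30915 to 53752 on the exercised arrays, against 49187 to 57506 on the control arrays. Endothelial and smooth muscle markers (11 measured) summed to 16131 to 21687 on the exercised arrays, against 23240 to 32857 on the control arrays, and those of nerve and Schwann cells (11 measured) to 4049.5 to 4987 on the exercised arrays, against 3846 to 5194 on the control arrays. In adipocyte markers (5 measured) the sums were 6972 to 9512 on the exercised arrays, against 7828 to 9320.5 on the control arrays. The medians of these 5 lists were 0.07, -0.27, 0.20, -0.19 and 0.17, with the neutrophil median at -0.02 under quantile normalization. Des, the intermediate filament desmin, is also a skeletal muscle marker, and without it the other 10 endothelial and smooth muscle markers summed to 8086 to 8447 on the exercised arrays, against 5222 to 8848 on the control arrays (median 0.29). Tagln, the smooth muscle protein transgelin, passed as lower without 2bA (-1.44, adjusted p = 0.0423). With all control arrays none of the marker lists had a called member, and their part in the other results was not tested.

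Matrix genes had 36 measured members with 0 calls, 24 above 0 and 11 below (median 0.18, and -0.02 against the polysomal control). Sparc, a collagen-binding matrix protein, read 13391, 26442, 10631 and 20836 on the exercised arrays, against 4272, 4179, 6686 and 11110.1 on the control arrays. Array 2bA was the highest of the control and lay just above the lowest exercised array (log2 1.47, SE 0.34, adjusted p = 0.136), and 2 of the other 3 probe sets had this direction. Bgn, the proteoglycan biglycan, stood at 0.84 (SE 0.24, adjusted p = 0.231), and the brightest probe sets of both genes passed as higher without 2bA. The fourth Sparc probe set stood at -0.74 (adjusted p = 0.473) and passed as lower without 2bA (-1.27, adjusted p = 0.0415), so the probe sets of this gene disagree. Ccn1, a matrix-associated signalling protein induced by stretch, stood at 2.03 (SE 0.75, adjusted p = 0.326), with geometric means of 1239 in exercised and 303 in control muscle and no overlap.

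Nuclear-encoded subunits of the respiratory chain, which make up the electron carriers and the ATP synthase of mitochondria, had the lowest median. Of 48 measured genes 44 stood below 0 and 4 above (median -0.70), and 19 had all 4 exercised arrays below all 4 control arrays, against 7.2% of all genes. With all control arrays 0 were called. Without 2bA 6 of them passed as lower, against 1.79% of all genes: Ndufc1, Ndufs4, Cox5a, Ndufa5, Cox7b and Ndufs8. Relative to the exercised mean, the median of the list was 0.82, 0.90 and 1.07 on control arrays 1aA, 1bA and 2aA and 0.21 on 2bA, while the exercised arrays lay between -0.16 and 0.18. Ndufc1, of the first complex, illustrates this with 9459, 11138, 7774 and 9235 on the exercised arrays, against 27982, 23022, 31829 and 11565 on the control arrays. Array 2bA lay just above the exercised range and the other 3 control arrays far above it (log2 -1.24, SE 0.28, adjusted p = 0.128). Its change without control array 2bA was -1.61 (adjusted p = 0.0135), and its adjusted p ran between 0.0121 and 0.996 over the 18 alternatives. For Ndufs4 array 2bA read lower than every exercised array, with 4307, 5706, 5446 and 5074 in exercised muscle, against 14848, 12846, 18137 and 3868 in the control. In polysomal RNA at 1 h, set against the same control arrays, Ndufc1 stood at 0.04 and Ndufs4 at 0.06. The median of the whole list was -0.24 in that comparison, and Ndufb11 stood at -0.30.

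The 10 genes with the smallest p among those lower in exercised muscle, none of them called, were Fam32a, Jph2, Rab14, Igfbp3, Ppp3ca, Ndufc1, Ndufb11, Mrpl13, Prkce and Mtdh. All 10 belong to the 253 probe sets that were higher in polysomal than in total RNA at 6 h, which make up 3.77% of all probe sets. Both comparisons use the same estimate of each probe set's spread, and a small spread gives a small p in both. Such overlaps of calls or smallest p, here and below, cannot be read against the share of all probe sets alone. Rab14, a small GTPase of membrane traffic, gave 279.5, 273, 255 and 297 on the exercised arrays, against 1293, 1142, 1329.9 and 343 on the control arrays. Mrpl13, of the mitochondrial ribosome, gave 964, 1144, 1176 and 1189.7 on the exercised arrays, against 4231, 4231, 5364 and 1210.1 on the control arrays. In both genes array 2bA was close to the exercised arrays and far below the other control arrays (Rab14 log2 -1.72, SE 0.35, adjusted p = 0.0879; Mrpl13 log2 -1.56, SE 0.37, adjusted p = 0.144). Rab14 stood at -2.21 without that array (adjusted p = 0.00738; 0.000486 to 0.833 over the 18 alternatives).

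Jph2, the junctophilin that ties the sarcoplasmic reticulum to the fibre's membrane, was less divided, with 11059, 10006, 9193 and 7964 on the exercised arrays, against 23336, 21988, 20888 and 15521 on the control arrays. All exercised arrays lay below all control arrays (log2 -1.09, SE 0.21, adjusted p = 0.0863). Fam32a showed the same order, with 725, 868, 489.6 and 555 on the exercised arrays, against 2028, 1759.6, 1656 and 1075 on the control arrays (log2 -1.30, SE 0.24, adjusted p = 0.0805). Ppp3ca, the catalytic subunit of the calcium-dependent phosphatase calcineurin, stood at -1.04 (SE 0.23), the kinase gene Prkce at -1.76 (SE 0.43) and Mtdh at -1.25 (SE 0.31). All of these passed without array 2bA. The other Prkce probe sets stood at -1.09, -0.56 and 0.13, and the dimmer ones of Ndufs4 at -0.05 and -0.07.

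Over the whole fraction lists, 235 of the 253 probe sets higher in polysomal RNA at 6 h stood below 0 here and 15 above (median -0.66), and 69 had all exercised arrays below all control arrays, against 6.13% of all probe sets. Of the 335 lower in polysomal RNA at 6 h, 287 stood above 0 and 47 below (median 0.35), and 22 had all exercised arrays above, against 5.83% of all. Among all probe sets 52.8% stood above 0 and 44.3% below. In polysomal RNA at 1 h, against the same control, the medians of the lists were 0.13 and -0.10. Without 2bA they were -0.92 and 0.52 in the total RNA comparison, and 59 of the 107 lower calls were among the 253 and 31 of the 95 higher calls among the 335.

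**Figure D4:**
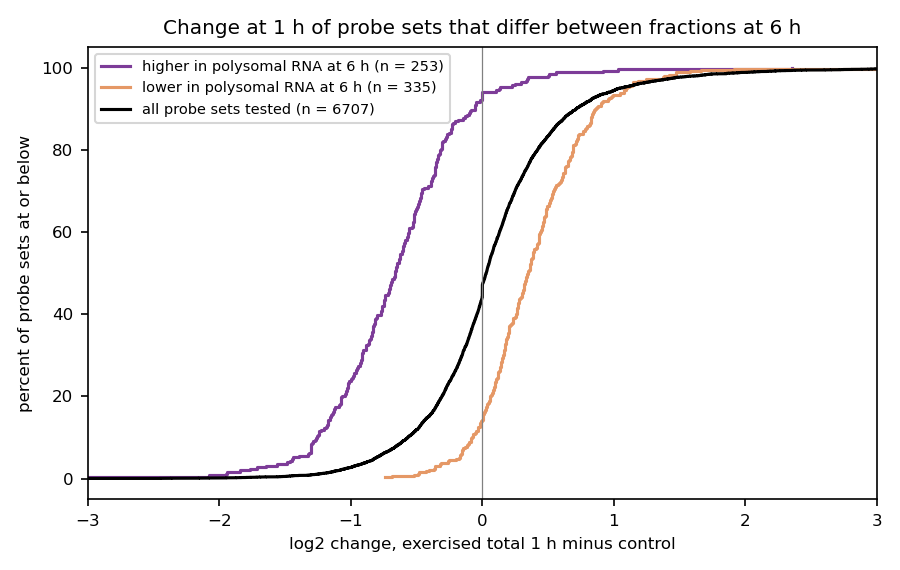
Cumulative share of probe sets (percent) by log2 change, exercised total RNA at 1 h minus control, for the 253 probe sets higher and the 335 lower in polysomal RNA at 6 h and for all 6707. The curve of the 253 is centred on -0.66, that of the 335 on 0.35 and that of all probe sets on 0.03; the axis is cut at -3 and 3.

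Of the 10 genes named as highest in exercised muscle, 3 were among the 335 probe sets lower in polysomal RNA at 6 h, which make up 4.99% of all probe sets. These were Bcl2l2, Supt5h and Sparc. Supt5h, an elongation factor of RNA polymerase II, had 4009, 3041, 3134 and 3176 on the exercised arrays, against 1177, 1305, 1032 and 3274 on the control arrays. Array 2bA lay inside the exercised range and the other 3 control arrays far below it (log2 1.14, SE 0.26, adjusted p = 0.128). It stood at 1.55 without control array 2bA, with an adjusted p of 0.01 (0.00288 to 1 over the 18 alternatives). The dimmer Supt5h probe sets stood at 0.20 and 0.13. Cav1, the coat protein of caveolae, was outside those 10 genes and those 335 probe sets but was divided in the same way. It read 1222, 1319, 746 and 1089.6 on the exercised arrays, against 43.8, 113, 40.2 and 1259 on the control arrays (log2 2.23, SE 0.94, adjusted p = 0.378). Bcl2l2, a survival protein of the Bcl2 family, was not divided in this way. It had 616, 620.5, 559.8 and 654 on the exercised arrays, against 496, 213, 252 and 263 on the control arrays (log2 1.08, SE 0.20, adjusted p = 0.0811). Pik3c3, a lipid kinase of vesicle traffic and autophagy, stood at 0.71 (SE 0.15, adjusted p = 0.101), with 3 control arrays under the floor.

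Protein synthesis and breakdown genes held 0 calls with all control arrays. Of 35 cytosolic ribosomal proteins 14 stood above 0 and 21 below (median -0.07, turning to 0.06 under quantile normalization). Rpl17 read 299, 313, 455 and 416 on the exercised arrays, against 1232, 1190.0, 970.0 and 285 on the control arrays, with 2bA under every exercised array (log2 -1.13, SE 0.37, adjusted p = 0.276). It passed as lower without 2bA (-1.57, adjusted p = 0.0189). The 19 translation factors had 10 above and 9 below 0 (median 0.07, and -0.07 under 75th percentile scaling). Proteasome, ubiquitin, calpain and cathepsin genes had 17 above and 23 below (median -0.17). The proteasome subunit Psmb1 stood at -0.91 (SE 0.32, adjusted p = 0.295), and the lysosomal protease Ctsl at 1.17 (SE 0.64, adjusted p = 0.533). In polyamine synthesis 1 of 6 genes stood above 0, Azin1, which protects the pathway's first enzyme, at 0.81 (SE 0.43).

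Fuel genes had 23 of 32 members above 0 and 9 below (median 0.30) with 0 calls. Pdk4, which closes the entry of pyruvate into the mitochondrion, had geometric means of 2227 in exercised and 338 in control muscle (log2 2.72, SE 1.72, adjusted p = 0.607) with no overlap. Cd36, a fatty acid carrier, read 716, 618, 545 and 407 on the exercised arrays, against 107, 177, 90.1 and 260.4 on the control arrays (log2 1.75, SE 0.66, adjusted p = 0.33). Fabp4, a fatty acid binding protein of adipocytes, had all exercised arrays below the control, with 828, 1432, 304 and 1025 in exercised muscle, against 2318, 1692, 2233 and 1565 in control muscle (log2 -1.30, SE 0.54, adjusted p = 0.372). Of 21 glycolysis and glycogen genes 12 stood above 0 and 9 below (median 0.10), and 0 were called. Eno3, the enolase of muscle, passed as lower without 2bA (-1.39, adjusted p = 0.0489). Pgam1, a mutase of glycolysis, stood at 0.53 (SE 0.21), with 1 of its 3 probe sets in this direction. Antioxidant genes had 12 of 23 above 0, and glucocorticoid response genes 5 of 9; under 75th percentile scaling the medians of both, 0.10 and 0.05, turned to -0.04 and -0.09. Their 0 calls included extracellular superoxide dismutase, Sod3, at 0.83 (SE 0.35), and Prdx1 at -0.73 (SE 0.27).

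Fast fibre genes stood below 0 in 14 of 15 cases (median -0.61), with 0 calls and 7 genes whose exercised arrays all lay below the control, against 7.2% of all genes. Relative to the exercised mean the list's median was 0.12, 0.38, -0.75 and 0.23 on the exercised arrays, against 0.68, 0.51, 0.46 and 0.61 on the control arrays, so exercised array 2aA stood apart. On it 11 probe sets that exceeded 5000 on the other array of its number read over 10-fold lower, and on exercised array 2bA 0 did. Atp2a1, the calcium pump of fast fibres, is one of them, with 24927, 30364, 320.0 and 27243 on the exercised arrays, against 40635, 26292, 35242 and 28501 on the control arrays. The array that was low was 2aA alone (log2 -1.84, SE 1.07). The skeletal actin gene Acta1 behaved alike, with 8318, 15502, 16.7 and 14156 on the exercised arrays, against 17088, 15643, 21209 and 16503 on the control arrays. Against the polysomal control the median of the list was 0.05. That control also had bright probe sets that read over 10-fold lower than on the other array of a number. There were 11 on its array 1A and 9 on 2A, and 0 to 3 on its other arrays. Atp2a1 had a geometric mean of 18453 in it, against 32186 in the control used here. Polysomal array 2aA at 1 h had 10 such probe sets. Without exercised array 2aA 4 probe sets were called, all 4 among the 5.

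Slow fibre genes were split, with 5 of 9 above 0 (median 0.09, and -0.05 under 75th percentile scaling). Casq2, a calcium store protein, read 911, 1122, 1101 and 1238 on the exercised arrays, against 352, 251, 338 and 870.0 on the control arrays. Array 2bA came close to the lowest exercised array (log2 1.44, SE 0.44, adjusted p = 0.243), and the gene passed as higher without it. For Myh7, the slow myosin heavy chain, array 2bA was the highest of all 8, with 8198, 8454, 7253 and 6839 on the exercised arrays, against 2879, 3507, 4120.0 and 12673 on the control arrays (log2 0.68, SE 0.39). Myl2, a light chain of slow fibres, stood at 0.09 (SE 0.44). Channels and pumps had 6 of 17 above 0, 10 below and 1 at the floor (median -0.01), with Kcnj11, a potassium channel gated by ATP, at -0.92 (SE 0.40). The muscle markers themselves had 3 of 13 above 0 and 10 below (median -0.41), and their summed signal ran from 113718 to 257347 on the exercised arrays, against 229854 to 280817 on the control arrays.

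The 2 numbers of the exercised group differed by over 1 on the log2 scale in 214 probe sets (3.19%) and by over 2 in 34, while the 2 numbers of the control differed by over 1 in 268 (3.996%) and by over 2 in 6. The exercised probe sets furthest apart included Chrna1, Chrnd, Gadd45a, Runx1 and Ankrd1, all higher in number 2. Runx1, a transcription factor that supports denervated muscle, read 1336, 892, 5076 and 4316 on the exercised arrays, against 1096, 1317, 914 and 657 on the control arrays. Array 1aA lay just above the control range, 1bA inside it and number 2 well above it (log2 1.23, SE 0.56, adjusted p = 0.443). Pvr, an adhesion receptor, read 199, 184, 811 and 729 on the exercised arrays, against 100.5, 149, 185 and 36.5 on the control arrays. The adrenergic receptor gene Adra1b read 97.8, 161, 645 and 700.0 on the exercised arrays, against 188, 96.6, 42.3 and 89.6 on the control arrays, which is under the floor on 3 control arrays. In the opposite direction Jund, an AP-1 subunit, read 443, 573, 102.3 and 124 on the exercised arrays, against 72.9, 196.5, 157 and 219 on the control arrays. Whether the numbers are animals, days or muscles is not in the labels.

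Polysomal RNA at 1 h was also available from exercised muscle, and its difference from total RNA at 1 h was tested in the same model. It shares the exercised total RNA arrays with the comparison above. Of the 6707 probe sets 26 differed (0.388%), 13 higher and 13 lower in polysomal RNA (0.194% each). As polysomal minus total RNA, Chrna1 differed by -4.003 on the log2 scale (adjusted p = 0.0224), and the called Myh3 probe set by -3.61 (adjusted p = 0.00474). Chrna1 read 469, 465, 476 and 332 on the polysomal arrays, against 2981, 2604, 17801 and 16455 on the total RNA arrays. The Myh3 probe set read 234, 183, 276 and 151 on the polysomal arrays, against 1698, 1395, 3959 and 4196 on the total RNA arrays. In both genes polysomal array 2bA read below the lowest control array, and the other 3 polysomal arrays lay within the control range. The probe set without a symbol was at least 2.48-fold lower in polysomal RNA (adjusted p = 0.00474), since all 4 polysomal arrays were under the floor.

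The 2 comparisons at 1 h share their control arrays, and each one's own values were as follows. Egr1 stood at 3.88 in total and 3.22 in polysomal RNA, Hspa1a at 3.78 and 3.19, Atf3 at 3.26 and 2.66, Fos at 3.43 and 2.31, Jun at 3.47 and 1.94, and Ankrd1 at 3.27 and 2.43. For these 6 genes the difference between the fractions did not pass (adjusted p between 0.43 and 0.858), which does not show that the fractions responded alike. The 2 numbers of polysomal RNA lay far apart in Egr1, with 54152, 46560, 7159 and 5797 on the polysomal arrays. Fos read 37782, 26481, 3706 and 2507 on them, and Atf3 18678, 17719, 1624 and 4832. Ankrd1 read 1006, 818, 29809 and 30693, with number 1 inside the control range. Hspa1a was less divided, with 7299, 5480.5, 5416 and 4604.5. Chrnd stood at 2.46 in total and -0.22 in polysomal RNA (adjusted p of the difference 0.0611), and Klf6 at 0.29 and 2.20. The difference of Klf6, 1.90 (SE 0.69, adjusted p = 0.188), did not pass either. Rab14, Ppp3ca and Mtdh were higher in polysomal than in total RNA, by 2.02 (adjusted p = 0.0343), 1.20 (adjusted p = 0.0423) and 1.58 (adjusted p = 0.0433), and Supt5h and Sod3 were lower, with differences of -1.40 (adjusted p = 0.0343) and -1.89 (adjusted p = 0.0344).

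**Figure D5:**
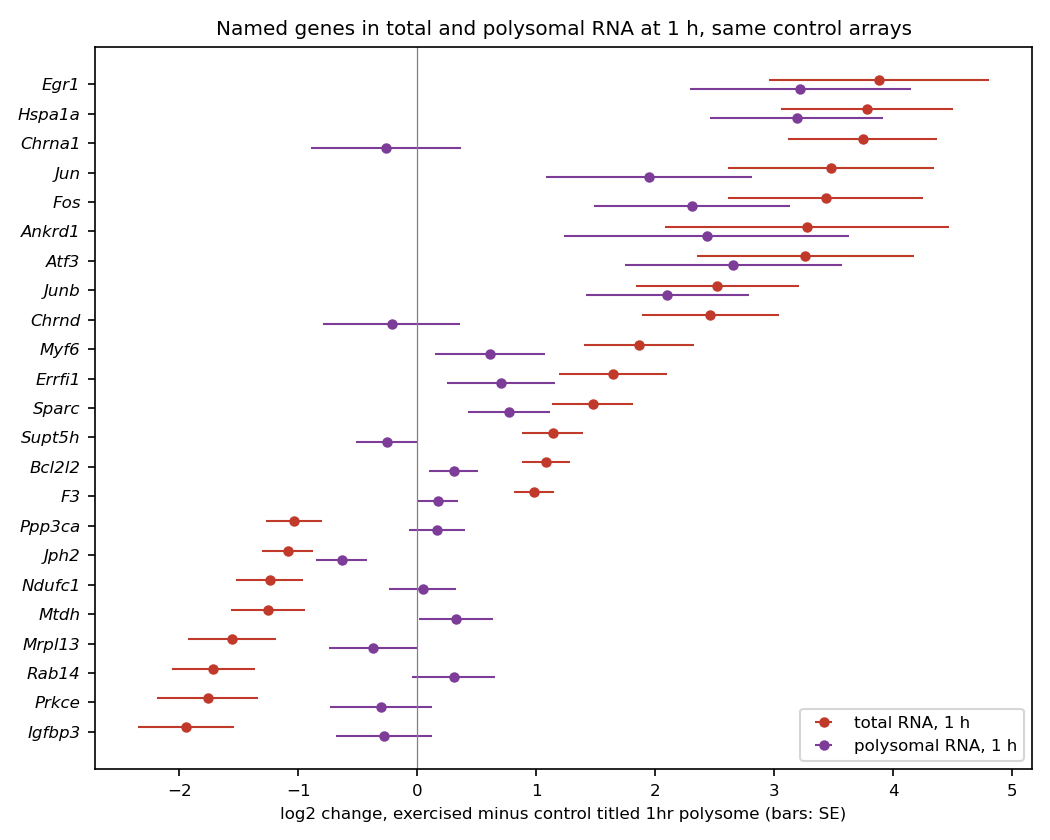
Log2 change with its SE for 23 genes in exercised total RNA (drawn above) and exercised polysomal RNA at 1 h, each minus the same 4 control arrays. Chrna1 lies at 3.74 in total and -0.26 in polysomal RNA, whereas Egr1 lies at 3.88 and 3.22.

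Against total RNA at 6 h, 4 of 6707 probe sets differed (0.0596%), all of them lower at 6 h than at 1 h. As 6 h minus 1 h, Chrna1 differed by -3.56 (adjusted p = 0.0333), the called Myh3 probe set by -2.42 (adjusted p = 0.0444) and the probe set without a symbol by -1.05 (adjusted p = 0.0166). This contrast holds no control array, but it shares the exercised 1 h arrays with the comparison above. Its 8 arrays at 6 h (4 numbers) and the 4 at 1 h are total RNA in title and description.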

How the data were processed

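The 36 arrays of rat skeletal muscle were analysed from intensity values deposited by the authors in 1 table, linear in scale. Which software made them, and how background and probes were handled, is not given in the sources used here. Their scaling was kept, since the 2% trimmed means lay within 10% of each other; the target of the scaling and any earlier centring stay unknown. Signals under the floor of 129.5 (40th percentile) were set to it, log2 was taken, and probe sets above it on at least 4 arrays were tested. Between the arrays of a number r was 0.964 and 0.969 in exercised muscle, against 0.969 and 0.914 in the control, so none was deposited as a copy. Both arrays of a number were averaged on the log2 scale as 1 replicate. The 18 replicates of 6 groups entered 1 model in limma 3.58.1 (R 4.3.3; lmFit, contrasts.fit, eBayes), with 12 residual degrees of freedom, no covariates, two-sided tests and Benjamini-Hochberg adjustment over 6707 probe sets at a threshold of 0.05. The fit was tested on simulated data.

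Of 8740 probe sets 7006 had 1 symbol, 308 several and 1426 none in the platform annotation; 6985 symbols were found or updated through Entrez identifiers in a RefSeq table (GRCr8). Probe sets with several symbols or none are not named. A gene is given by its brightest probe set; 1152 of 3903 genes had more than 1. Promoter sequences are from RefSeq. The rule for named genes took the 15 highest and 15 lowest called genes above the floor in both groups, filled up to 10 by the smallest p and given as not passing. From each of the 26 lists it took the called members, up to 4, or the 2 with the smallest p. Called genes at the floor in 1 group were added as bounds, and 17 genes were always looked for, of which Btg2 was not among the genes measured. Genes outside this rule, such as list members given by geometric means and those furthest apart between the numbers, were picked with their values known. The groups, lists and genes were chosen with earlier results of these data known. Alternatives covered the arrays, replicates, scaling, floor, filter, control group and model.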

Additional observations from a re-analysis of the deposited data

Results flagged for a closer look

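For the named genes and the array checks, 170 groups of 4 arrays were tested for an array far from the other 3. For independent values off the floor, chance alone would flag about 1 of 20 groups. That rate does not hold for values set to the floor, and the 4 arrays of a group are 2 numbers with 2 arrays each. There were 17 such cases, and 14 of them fell on control array 2bA. It read low in Rab14 (343), Ndufb11 (7636), Mrpl13 (1210.1), Rpl17 (285), Psmb1 (3969), Atp2a2 (3565) and Nr4a3 (222). It read high in Pik3c3 (133), Bgn (1463), Hbegf (211), Cav1 (1259), RatNP-3b (143) and Lcn2 (175). The fourteenth case was its median correlation with the polysomal control, 0.909. The other 3 cases were exercised array 2aA in Atp2a1 (320.0), exercised array 1aA in Supt5h (4009) and control array 2aA in Kcnj11 (5424).

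Between RNA fractions at 1 h, tested as polysomal minus total RNA of exercised muscle, Chrna1 differed by -4.003, the called Myh3 probe set by -3.61, Sod3 by -1.89, Supt5h by -1.40 and the probe set without a symbol by -1.31 on the log2 scale. Rab14 differed by 2.02, Mtdh by 1.58 and Ppp3ca by 1.20. Between 6 h and 1 h in total RNA, the differences were -3.56 for Chrna1, -2.42 for the called Myh3 probe set and -1.05 for the probe set without a symbol. The fraction difference of the probe set without a symbol is a bound, since its polysomal arrays at 1 h lay under the floor.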

How the results depend on the processing

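The count of 5 called probe sets rested on the control arrays, the model and the floor. Without control array 2bA it was 202, with the polysomal control 564 and with both controls 263. Leaving out 1 replicate gave 0 to 19 calls: 19 without exercised number 1 (3 of the 5 among them), 1 without exercised number 2, and 0 without control number 1 or 2 (limma; 299 and 718 at an unadjusted p under 0.05). In each of these the lone number is assumed to vary like the other groups. Other settings gave 10 calls without a filter on dim probe sets, 113 with the 2 arrays of a number as a random block, 8 with a trend and robust variance, 0 with the 4 replicates alone (1369 unadjusted) and 0 with the floor at the 20th percentile (838 unadjusted). Quantile normalization and 75th percentile scaling gave 5 each and no floor with a pseudocount of 50 gave 4. These were not all the same probe sets. Of the 5 main calls, 4 were kept under each of the 2 scalings, 3 with no floor and 4 without the filter. Chosen after seeing the data, leaving out exercised array 2aA gave 4, and leaving out 2aA with control array 2bA gave 254. With the number as a replicate block 28 were called, the 5 among them. The numbers share only a number, with deviations that correlated at 0.012 between exercised total and control and at 0.20 between total and polysomal RNA at 1 h (2 numbers).

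The median of the 335 probe sets lower in polysomal RNA was 0.35, against 0.52 without 2bA, 0.23 under quantile normalization, 0.21 under 75th percentile scaling, 0.61 with the polysomal control, 0.48 with both controls and 0.52 without 2aA and 2bA. That of the 253 was -1.08 with the polysomal control, beside -0.66. Of the 26 gene lists, 10 kept the sign of their median under every alternative: the immediate early, heat shock, endoplasmic reticulum, stretch-responsive, inflammation, fuel, respiratory chain, proteasome, red cell and endothelial lists. The other 16 changed it under at least 1. Leaving out 1 replicate gave -0.87 to -0.49 for the 253 and 0.26 to 0.41 for the 335.

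Of the 1422 values of single genes under the alternatives, 1220 kept their direction and side of the threshold, 157 passed where they had not, 33 no longer passed and 12 changed sign. The sign changes were Klf6 at -0.29 without 2bA, -0.0041 without control number 2, -1.47 with the polysomal control, -0.59 with both controls and -0.33 without 2aA and 2bA. The others were RatNP-3b (-0.036), Lcn2 (-0.013) and Myl2 (-0.13) without exercised number 1, Myl2 without control number 1 (-0.046) and under 75th percentile scaling (-0.048), Nr4a1 without control number 2 (-0.061) and Mybpc2 with the polysomal control (0.047). Leaving out 1 replicate gave -0.0041 to 0.59 for Klf6, -0.036 to 0.35 for RatNP-3b, -0.013 to 0.45 for Lcn2, -0.13 to 0.32 for Myl2 and -0.061 to 0.65 for Nr4a1. None of these genes had been called. The causes were not tested. Genes near the floor have only a bound on their change.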
